A study of Mus musculus with 6 samples.

Results

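The genes described here make cholesterol and fatty acids, or control the sterol regulatory element-binding proteins (SREBPs) that switch these enzymes on. They are 28 genes fixed by name, and all 28 were found among the 22386 genes of the table and passed the filter on low counts. They were split into 7 early sterol genes (Acat2, Hmgcs1, Mvk, Pmvk, Mvd, Idi1 and Fdps), 11 late sterol genes (Fdft1, Sqle, Lss, Cyp51, Tm7sf2, Msmo1, Nsdhl, Hsd17b7, Ebp, Sc5d and Dhcr7), 5 genes of lipogenesis (Acly, Acaca, Fasn, Elovl6 and Me1) and 5 regulators (Srebf1, Srebf2, Scap, Insig1 and Stard4). Counts came from MC38, a mouse colorectal cancer line grown in DMEM with serum. There were 3 libraries with a control short hairpin RNA (shControl, labelled WT) and 3 with a hairpin against Acsl4 (shACSL4, labelled as a knockdown), while the series' own design line speaks of a knockout. Acsl4 encodes an enzyme that couples arachidonate and related long polyunsaturated fatty acids to coenzyme A. The number of hairpin sequences or clones behind the 3 shACSL4 libraries is not given in the sources used here. Whether the libraries of a group came from separate cultures is not given either, so each p-value measures the spread between these libraries alone.

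SREBPs are held in the endoplasmic reticulum by the sterol sensor Scap and its Insig anchors while cholesterol is plentiful. When sterols fall, Scap carries SREBP to the Golgi, where proteases free the part that acts as a transcription factor. In mouse liver, SREBP-2 (from Srebf2) mainly drives cholesterol synthesis and uptake, and SREBP-1c (from Srebf1) mainly drives fatty acid synthesis. Polyunsaturated fatty acids lower SREBP-1 activity in liver cells.

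The hairpin lowered its target in part. Acsl4 stood at 191, 194 and 204 CPM (counts scaled to a common library size by TMM, edgeR's trimmed mean method) in shControl 1, 2 and 3, and at 132, 128 and 127 CPM in shACSL4 1, 2 and 3, the order used for all values given by library. All shACSL4 libraries were below all controls (log2 fold change -0.61, SE 0.0517, edgeR adjusted p = 3.84e-06). Library totals ran from 40911698 to 47127672 counts, and each member had between 131 and 43858 counts in every library. shControl 3 stood apart from the other controls, with 5.85% of its counts on mitochondrial transcripts against 3.98% in shControl 1 and 3.79% in shControl 2, and leaving it out raised the number of changed genes from 4155 to 5477. The shACSL4 libraries had 4.93%, 6.31% and 5.48%, all above shControl 1 and 2, and 18897 to 19262 genes with a count against 18219 to 18552 in the controls. The part of these differences in the results was not tested. Of 9 listed markers of colorectal epithelium, Epcam and Cdx2 were not analysed here. Of the other 7, 6 stayed under 1 FPKM (a count scaled by gene length and depth) in every library, Cdh1 and Krt18 among them. Their summed level was 1.00 to 1.27 FPKM in the controls and 1.38 to 1.90 FPKM in shACSL4, so the colorectal origin given in the labels was not seen in these epithelial markers. Of the 3 epithelial markers tested, 1 rose and 0 fell. This was Krt20, at 0.486 ± 0.0744 FPKM in the controls and 0.880 ± 0.213 in shACSL4 (1.79-fold, edgeR adjusted p = 0.0361). The Krt20 call held in only 1 of 6 fits with a library left out. Of 11 listed markers of leukocytes, endothelium and fibroblasts, Adgre1 was not analysed here. Of the other 10, 8 stayed under 1 FPKM, with Ptprc and Cd3e at or near 0. Of the 5 that were tested 3 rose (Pdgfra, Pdgfrb and Lyz2) and 0 fell (0 at an unadjusted p under 0.05), and DESeq2 and limma-voom each gave the same counts. Beside both marker lists, 15.4% of all genes tested rose and 13.6% fell. Lyz2, a lysozyme of myeloid cells, was at 0.945, 1.47 and 1.14 FPKM in the controls and 3.58, 3.93 and 3.14 FPKM in shACSL4 (edgeR adjusted p = 9.26e-05), and Pdgfrb rose 1.95-fold (adjusted p = 0.00559). Those 10 summed to 13.4 to 14.1 FPKM in the controls and 28.9 to 31.9 FPKM in shACSL4, most of it Pdgfra (12.0 to 12.5 and 25.1 to 27.4 FPKM), and the part of these markers in the results below was not tested.

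Genes of both pathways were higher in shACSL4, by modest amounts. Of the 28 members 15 rose and 0 fell (edgeR quasi-likelihood test, adjusted p under 0.05 over all 14289 genes tested). Over all genes tested, 15.4% rose and 13.6% fell. No member was lower at an unadjusted p under 0.05 either (0 of 28), and DESeq2 and limma-voom each gave 15 higher and 0 lower. Fitted fold changes were above 0 on the log2 scale for 27 of 28 members, with a median of 0.21, where the median of all genes tested was -0.0052. The 3 shACSL4 libraries all lay above the 3 controls for 18 members, and 22% of all genes did so, while 0 members lay wholly below the controls, where 20.8% of all genes did. The largest rise, of Idi1, was 1.5-fold. The authors' deposited table also put 15 members higher and 0 lower at its adjusted p under 0.05, where 9.51% of its genes were higher and 8.4% lower. In a bulk culture, more transcript per cell and more cells expressing a gene cannot be told apart.

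**Figure D1:**
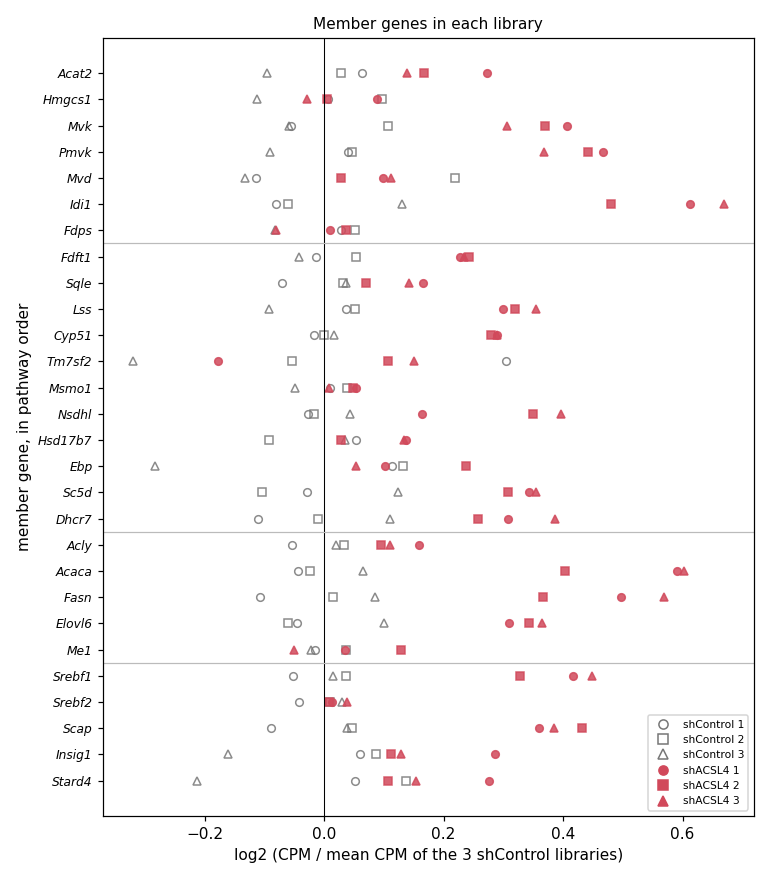
Level of each of the 28 members in each library as log2 of its CPM over the mean of the 3 shControl libraries (horizontal axis), in pathway order (vertical axis), with open grey symbols for shControl and filled red for shACSL4. Idi1, Acaca, Fasn and Srebf1 show red symbols clear to the right of grey, while Hmgcs1, Fdps, Me1 and Srebf2 overlap.

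Early sterol steps turn acetyl-CoA into farnesyl diphosphate through mevalonate. In this stretch 4 of 7 genes rose (Acat2, Mvk, Pmvk and Idi1) and 0 fell with edgeR (0 also at an unadjusted p under 0.05, and with DESeq2 and limma-voom), with a median log2 fold change of 0.19. Idi1 (ENSMUSG00000058258, GRCm39 chromosome 13, 8935537 to 8942487), the isomerase that supplies dimethylallyl diphosphate, was at 83.0, 84.2 and 96.0 CPM in the controls and at 134, 122 and 139.6 CPM in the knockdown libraries. The groups were well separated, and the fitted rise was 1.51-fold (log2 fold change 0.59 with SE 0.0697, adjusted p = 5.23e-05). Mvk encodes mevalonate kinase, the first kinase of the route, and had 35.6, 39.8 and 35.5 CPM in the controls and 49.0, 47.8 and 45.8 CPM in shACSL4 (log2 fold change 0.36 with SE 0.0686, adjusted p = 0.00177). Pmvk, which adds the second phosphate, went from 44.1, 44.4 and 40.3 CPM to 59.3, 58.3 and 55.4 CPM (log2 fold change 0.43 with SE 0.0641, adjusted p = 3.45e-04). Both kinases thus lay above all controls in every shACSL4 library, with fitted rises of 1.28-fold and 1.34-fold. Acat2, the cytosolic thiolase that joins 2 acetyl-CoA, rose less, from 94.6 ± 5.40 to 108 ± 5.34 CPM (log2 fold change 0.19 with SE 0.0608, adjusted p = 0.0304). It no longer passed when shControl 2 (adjusted p = 0.0632), shACSL4 1 (0.141) or shACSL4 2 (0.0642) was left out. The neighbouring paralog Acat3 had only 0.915 CPM in the controls and 0.978 in shACSL4 (adjusted p = 0.877), and how reads shared by the pair were assigned is not given.

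The other 3 early genes did not pass the test. Hmgcs1 (ENSMUSG00000093930, GRCm39 chromosome 13, 120151915 to 120169796), the synthase that makes HMG-CoA and a textbook SREBP target, was at 300.02, 319 and 276 CPM in the controls and 317, 299.7 and 293 CPM in shACSL4. These groups overlapped, and the 95% interval of the log2 fold change was -0.11 to 0.16 (adjusted p = 0.818). Fdps, which makes farnesyl diphosphate directly downstream of Idi1, was at 235, 239 and 218 CPM and 232, 236 and 218 CPM, with an interval of -0.13 to 0.11 (adjusted p = 0.910). The interval of Fdps ended below the interval of Idi1, which ran from 0.44 to 0.74. The FPKM of Idi1 over that of Fdps was 0.424, 0.423 and 0.530 in the controls and 0.694, 0.622 and 0.769 in the knockdown, a pair picked after the values were seen and so not tested. Mvd, the decarboxylase before Idi1, had 29.8, 37.5 and 29.4 CPM and 34.5, 32.9 and 34.8 CPM, and shControl 2 exceeded all shACSL4 libraries (adjusted p = 0.553).

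Promoter sequences were set beside these values because SREBPs act with the factors NF-Y and Sp1 on sterol-regulated promoters. RefSeq windows (GRCm38.p6, 250 bases before to 50 after a gene start) were matched by symbol for 24 of 28 members, 31 windows in all. Fdps, Fdft1, Sqle and Stard4 had no window. The motifs searched, on both strands, were a sterol element TCACNCCAC, the E-box CACGTG, the inverted CCAAT box ATTGG bound by NF-Y, and the GC box GGGCGG bound by Sp1. The 4 windows printed are of Hmgcs1, the only matched member whose window held the sterol element, and of Idi1, Mvk and Fasn, which rose. Capitals mark the sterol element and every inverted CCAAT box on either strand.
Hmgcs1 chr13:119690101-119690400 (+ strand): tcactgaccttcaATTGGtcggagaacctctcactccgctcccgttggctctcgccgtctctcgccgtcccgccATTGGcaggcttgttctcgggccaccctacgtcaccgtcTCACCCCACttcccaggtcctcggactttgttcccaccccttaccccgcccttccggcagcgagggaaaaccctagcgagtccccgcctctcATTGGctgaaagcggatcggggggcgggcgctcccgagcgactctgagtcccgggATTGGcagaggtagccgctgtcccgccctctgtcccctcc
Idi1 chr13:8885356-8885655 (+ strand): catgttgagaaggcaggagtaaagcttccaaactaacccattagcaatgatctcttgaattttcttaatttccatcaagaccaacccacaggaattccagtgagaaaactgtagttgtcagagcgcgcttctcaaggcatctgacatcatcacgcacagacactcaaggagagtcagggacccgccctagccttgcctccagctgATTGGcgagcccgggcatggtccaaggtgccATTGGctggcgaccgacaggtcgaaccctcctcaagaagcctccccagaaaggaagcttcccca
Mvk chr5:114444019-114444318 (+ strand): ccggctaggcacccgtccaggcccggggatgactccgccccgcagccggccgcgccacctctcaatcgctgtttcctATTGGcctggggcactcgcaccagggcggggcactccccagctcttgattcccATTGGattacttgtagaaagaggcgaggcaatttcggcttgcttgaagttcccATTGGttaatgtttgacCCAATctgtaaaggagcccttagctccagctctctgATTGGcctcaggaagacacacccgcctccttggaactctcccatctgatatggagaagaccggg
Fasn chr11:120824498-120824797 (- strand): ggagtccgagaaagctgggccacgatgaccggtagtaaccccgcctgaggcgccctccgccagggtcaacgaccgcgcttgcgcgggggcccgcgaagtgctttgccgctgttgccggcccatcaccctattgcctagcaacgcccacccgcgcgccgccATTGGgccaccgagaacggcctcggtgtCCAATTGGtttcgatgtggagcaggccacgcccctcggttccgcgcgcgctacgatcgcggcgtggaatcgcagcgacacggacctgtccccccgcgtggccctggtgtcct
The Hmgcs1 window held TCACCCCAC starting 137 bases before the gene start, with 4 inverted CCAAT boxes around it. Idi1 had 2 such boxes, Mvk 5 and Fasn 3, of which a pair overlaps on opposite strands in Fasn. Inverted CCAAT boxes were present for 20 of 24 matched members (83.3%), against 44.0% of the 10542 tested genes with a window and 37.4% of all 32851 windows. GC boxes were present for 83.3% of members and 67.3% of tested genes (35.7% of all windows), E-boxes for 20.8% and 11.3% (7.15% of windows), and the sterol element for 4.17% and 1.37% (1.24% of windows). Among matched members, an inverted CCAAT box was found in 10 of the 14 that rose and in all 10 that did not pass the test. A match describes letters in this window and is not evidence of binding. Only the exact letters were searched, so a window without a match can still hold a variant of the sterol element.

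**Figure D2:**
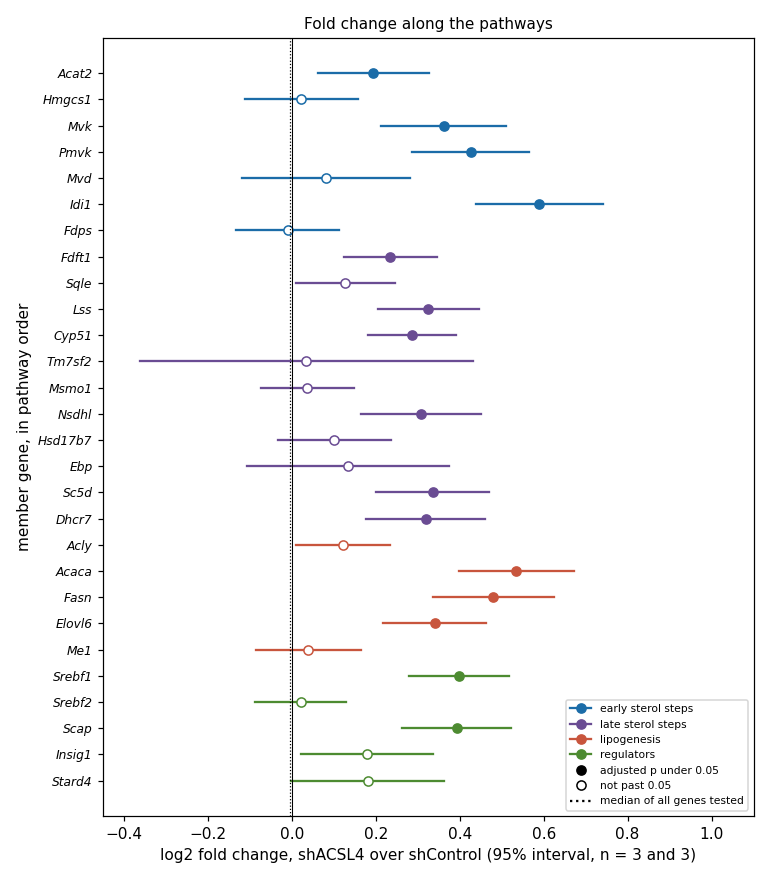
Fitted log2 fold change of shACSL4 over shControl (horizontal axis) with its 95% interval for each member in pathway order (vertical axis), filled where the adjusted p was under 0.05. All 28 points but Fdps lie above 0, and within each colour some intervals cross 0 while others lie clear of it.

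Late sterol steps join farnesyl units into squalene, close it into lanosterol and trim that to cholesterol. Of these 11 genes 6 rose (Fdft1, Lss, Cyp51, Nsdhl, Sc5d and Dhcr7) and 0 fell with edgeR (0 at an unadjusted p under 0.05, and with DESeq2 and limma-voom), with a median log2 fold change of 0.23. Cyp51 (ENSMUSG00000001467, GRCm39 chromosome 5, 4131145 to 4154746), the lanosterol demethylase, had the tightest replicates, at 466, 471 and 477 CPM in the controls and 576, 572 and 576 CPM in shACSL4. The rise was small but far outside that spread (1.22-fold, log2 fold change 0.29 with SE 0.0484, adjusted p = 8.13e-04). Lss, the cyclase that makes lanosterol, went from 135, 137 and 124 CPM to 163, 165 and 169 CPM (log2 fold change 0.32 with SE 0.0554, adjusted p = 8.58e-04). Sc5d, a desaturase near the end of the route, went from 136, 129 and 151 CPM to 176, 172 and 178 CPM (log2 fold change 0.34 with SE 0.0619, adjusted p = 0.00145). Dhcr7, the reductase of 7-dehydrocholesterol, went from 70.04, 75.1 and 81.6 CPM to 93.6, 90.4 and 98.8 CPM (log2 fold change 0.32 with SE 0.0656, adjusted p = 0.00305). None of these 4 genes overlapped between the groups. Nsdhl, one of the enzymes that strip methyl groups at carbon 4, rose from 72.9 ± 1.95 to 90.3 ± 7.52 CPM (SD, n = 3; adjusted p = 0.00389). Fdft1, squalene synthase, rose from 151 ± 5.09 to 177 ± 0.914 CPM (adjusted p = 0.00412). Fdft1 shares 774 bases with Ctsb on the opposite strand, a gene with 234085 counts over the 6 libraries against 42092 for Fdft1 that itself rose by 0.45 on the log2 scale. Without a stated strand setting, reads in the shared stretch cannot be told apart.

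The other 5 late genes did not pass the test. Sqle, squalene epoxidase, came closest, at 289.7, 311 and 312 CPM in the controls and 341, 319.6 and 336 CPM in shACSL4. Its groups did not overlap (interval 0.0087 to 0.25, adjusted p = 0.101), and without shControl 3 the adjusted p was 0.0266. Msmo1, the oxidase that opens carbon 4 demethylation, had 223, 227 and 214 CPM and 229, 229 and 222 CPM. Its interval was -0.074 to 0.15 and ended just below that of Nsdhl (0.16 to 0.45). This pair was picked with the values known, so its difference was not tested. Hsd17b7 and Ebp, a ketoreductase and an isomerase of the same route, had log2 fold changes of 0.10 and 0.13 (adjusted p = 0.249 and 0.401). Tm7sf2, a sterol reductase, was the scarcest member at 0.897 ± 0.208 FPKM in the controls. It had 206, 156 and 131 counts in the controls, and its interval of -0.36 to 0.43 holds the size of change seen in its neighbours as well as no change. It shares 532 bases with Vps51 on the same strand.

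Lipogenesis builds palmitate from citrate-derived acetyl-CoA and NADPH and then lengthens it. Of the 5 genes 3 rose (Acaca, Fasn and Elovl6) and 0 fell with edgeR (0 at an unadjusted p under 0.05, and with DESeq2 and limma-voom), with a median log2 fold change of 0.34. Acaca (ENSMUSG00000020532, GRCm39 chromosome 11, 84020498 to 84292477), the carboxylase that commits acetyl-CoA to fatty acids, was at 196, 199 and 211 CPM in the controls and 304, 267 and 307 CPM in the knockdown libraries. Fasn (ENSMUSG00000025153, GRCm39 chromosome 11, 120696672 to 120715373), the synthase itself, was at 581, 632 and 663 CPM and 882, 806 and 927 CPM. In both genes shACSL4 2 was the lowest knockdown library and still lay above every control, and the rises were 1.45-fold (log2 fold change 0.53 with SE 0.0633, adjusted p = 5.28e-05) and 1.39-fold (log2 fold change 0.48 with SE 0.0665, adjusted p = 1.79e-04). Elovl6, which extends palmitate to stearate, went from 205, 203 and 227 CPM to 262, 268 and 272 CPM (log2 fold change 0.34 with SE 0.0569, adjusted p = 7.47e-04).

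Acly and Me1, which feed the synthase with acetyl-CoA and NADPH, did not pass the test. Acly, which splits citrate to acetyl-CoA, was at 569.7, 605 and 600.01 CPM in the controls and 660.2, 632 and 638 CPM in shACSL4, without overlap (interval 0.010 to 0.23, adjusted p = 0.0975). Its adjusted p was 0.0329 without shControl 3. Me1, malic enzyme, was at 345, 358 and 343 CPM and 357, 381 and 337 CPM, with overlap (interval -0.085 to 0.16, adjusted p = 0.645). The intervals of Acly and Me1 both ended below those of Acaca (0.40 to 0.67) and Fasn (0.34 to 0.62). The interval of Elovl6, which also rose, began at 0.22, below the end of that of Acly. These genes were set side by side with their values known, so the differences between them were not tested.

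Among the regulators, the SREBP-1 gene rose and the SREBP-2 gene did not pass the test. Srebf1 (ENSMUSG00000020538, GRCm39 chromosome 11, 60089915 to 60113407) was at 116, 123 and 122 CPM in the controls and 161, 151 and 164 CPM in shACSL4, all above the controls (1.32-fold, log2 fold change 0.40 with SE 0.0546, adjusted p = 1.66e-04). Srebf2 (ENSMUSG00000022463, GRCm39 chromosome 15, 82031382 to 82089580) was at 289, 299 and 303 CPM and 299.97, 299 and 305 CPM, and its interval of -0.088 to 0.13 ended below the lower bound of Srebf1 at 0.28. Per length, the FPKM of Srebf1 over that of Srebf2 was 0.513, 0.526 and 0.511 in the controls and 0.683, 0.645 and 0.687 in shACSL4, a pair picked with these values known and so not tested. Gene counts do not separate the SREBP-1a and SREBP-1c transcripts of Srebf1. Scap, the sterol sensor that escorts both SREBPs, went from 53.5, 58.8 and 58.4 CPM to 73.0, 76.7 and 74.2 CPM (log2 fold change 0.39 with SE 0.0598, adjusted p = 3.77e-04). Its partner Insig1, which retains the complex and is itself an SREBP target, was at 221, 225 and 189.5 CPM and 258, 229 and 232 CPM. Insig1 libraries did not overlap, but its adjusted p was 0.0855 (interval 0.021 to 0.34). Stard4, a cytosolic carrier of cholesterol, was at 159, 168 and 132 CPM and 185, 165 and 170.2 CPM, with overlap (adjusted p = 0.129). With the replicate number as a block, Insig1 and Stard4 had adjusted p of 0.0166 and 0.0381, but the numbers are not known to pair libraries.

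Set side by side, early steps, late steps and lipogenesis each held both genes that rose and genes that did not pass the test. Rises were found in 4 of 7 early sterol, 6 of 11 late sterol and 3 of 5 lipogenesis genes, where 15.4% of all genes rose. Log2 fold changes spanned -0.011 to 0.59 in the early steps, 0.034 to 0.34 in the late steps and 0.039 to 0.53 in lipogenesis. All 3 ranges run from near 0 upward, and the largest single rises were in the early steps and lipogenesis. Relative to the control mean, the median gene of the early steps was at 0.27, 0.17 and 0.14 (log2 of CPM + 0.5) in shACSL4 1 to 3, that of the late steps at 0.17, 0.24 and 0.23, and that of lipogenesis at 0.31, 0.34 and 0.37. The controls were at 0.010, 0.053 and -0.088 for the early steps, -0.013, 0.0006 and 0.017 for the late steps and -0.044, 0.017 and 0.065 for lipogenesis. Lipogenesis had the highest of these medians in every shACSL4 library, from 5 genes, and the difference between groups was not tested.

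**Figure D3:**
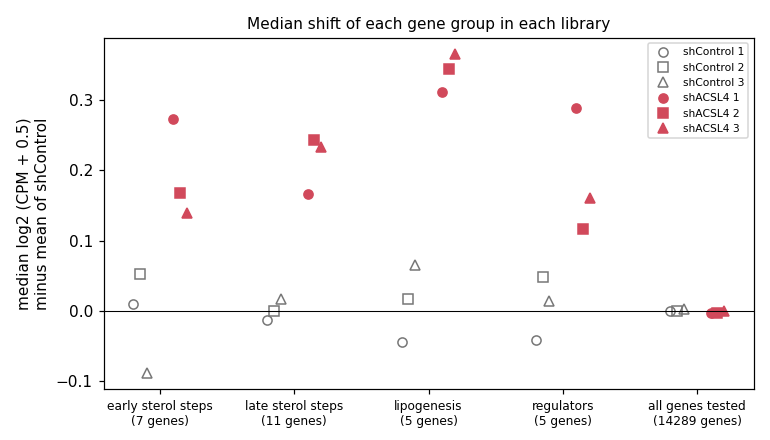
Median over each gene group of log2 (CPM + 0.5) minus the mean of the 3 shControl libraries (vertical axis), for 4 member groups and all 14289 genes tested (horizontal axis), with open grey symbols for shControl and filled red for shACSL4. Every red symbol of the 4 member groups lies above the grey symbols of the same group, while all symbols for all genes sit near 0.

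Summed transcript levels per length were also higher in shACSL4, and here the fold of lipogenesis lay between those of the early and late sterol steps. The early genes summed to 241, 249 and 223 FPKM in the controls and 281, 268 and 265 FPKM in the knockdown. The late genes summed to 334, 337 and 333 FPKM and 395, 390.4 and 399 FPKM. Lipogenesis summed to 296, 308 and 306 FPKM and 359.7, 349.7 and 355 FPKM. Each sum was higher in every shACSL4 library than in any control, by 1.14-fold, 1.18-fold and 1.17-fold on the means. The lipogenesis sum over the sterol sum was 0.515, 0.526 and 0.550 in the controls and 0.532, 0.531 and 0.534 in shACSL4, so this balance overlapped between the groups. Acly and Me1, which did not pass the test, make up most of the lipogenesis sum.

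Levels per length ranged widely along both routes. In the controls Acly (112 ± 2.90 FPKM, SD, n = 3) and Cyp51 (106 ± 0.314) were the most abundant, and their control libraries did not overlap (108.7 to 114.5 against 106.1 to 106.7 FPKM), followed by Me1 (90.3 ± 2.63). Insig1 (68.3 ± 7.01) and Hmgcs1 (64.8 ± 5.29) came next, within each other's spread, then Fasn (56.9 ± 3.11), Sqle (54.7 ± 1.80) and Fdps (54.6 ± 3.29), also within their spread. Srebf2 (41.2 ± 0.621) ranked 9 of 28 and Srebf1 (21.3 ± 0.566) 19. The low end held Acaca (11.8 ± 0.323), Ebp (8.61 ± 1.42), Scap (7.61 ± 0.337) and Tm7sf2. Both abundant and scarce members were among those that rose, from Cyp51 at rank 2 to Scap at rank 27.

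**Figure D4:**
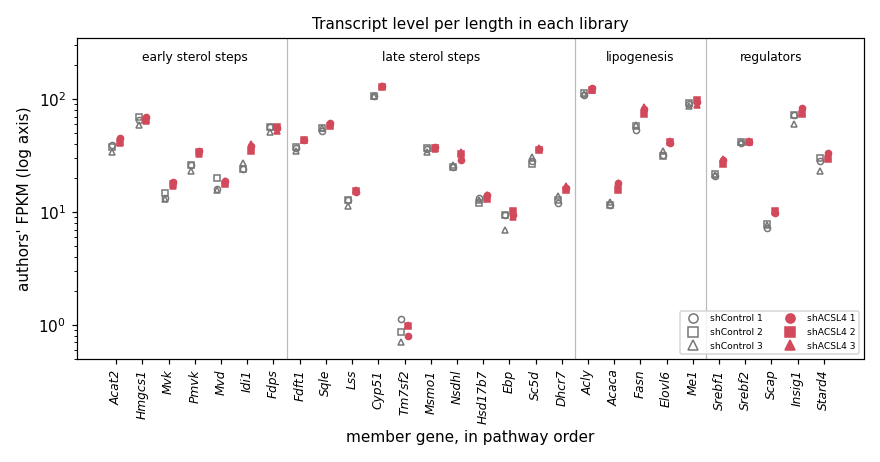
The authors' FPKM of each member in each library on a log axis (vertical), in pathway order (horizontal), with open grey symbols for shControl and filled red for shACSL4. Acly and Cyp51 sit highest at over 100 FPKM, Tm7sf2 is near 1 FPKM, and the shift between groups is small beside the range of levels.

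The controls did not vary together across members. shControl 3 was the lowest control for 14 of 28 members, including Hmgcs1, Fdps, Mvd, Insig1, Stard4 and Ebp, and the highest for 10, including Idi1, Acaca, Fasn, Elovl6, Sc5d and Dhcr7. For Insig1 it was at 189.5 CPM against 221 and 225 in the other controls. Without shControl 3, 17 members rose, and the median log2 fold change of the regulators went from 0.18 to 0.11, a drop of over 1.5 times, while that of lipogenesis went from 0.34 to 0.40.

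Of 12 tested further genes of sterol synthesis and uptake, 3 rose and 1 fell with edgeR, with a median log2 fold change of 0.11, where 15.4% of all genes rose and 13.6% fell. DESeq2 gave 4 higher and 1 lower, and limma-voom gave 3 and 1. Aacs, which activates acetoacetate for lipid synthesis, rose 1.38-fold (adjusted p = 3.95e-05). Ggps1, which draws farnesyl diphosphate off to geranylgeranyl diphosphate, fell from 56.4 ± 3.41 to 46.4 ± 1.78 CPM (adjusted p = 0.00661).

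Further lipogenic and desaturation genes had 8 of 15 tested members higher and 0 lower with edgeR (1 lower at an unadjusted p under 0.05, and 0 with DESeq2 and limma-voom), with a median log2 fold change of 0.23. Of all genes tested, 15.4% were higher and 13.6% lower. Acss2, which makes acetyl-CoA from acetate, went from 30.9, 31.3 and 30.8 CPM to 49.6, 50.8 and 44.1 CPM (1.56-fold, adjusted p = 2.89e-05). Scd1, a desaturase of stearate, went from 359, 367 and 411 CPM to 523, 522 and 549 CPM (1.40-fold, adjusted p = 8.34e-05). Elovl5 and Fads1, which lengthen and desaturate polyunsaturated fatty acids, rose 1.26-fold and 1.26-fold (adjusted p = 5.47e-04 and 6.20e-04). The remaining risers were Acacb, Elovl1, Scd2 and Fads2. Scd2 was more abundant than Scd1 in the controls, at 407 ± 24.6 against 77.1 ± 4.73 FPKM, and rose 1.17-fold (edgeR adjusted p = 0.0111). With a library left out, the calls of Elovl1 and Fads2 held in 2 of 6 fits (adjusted p up to 0.0956 and 0.115) and that of Scd2 in 4 of 6 (up to 0.0791).

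Of 14 tested genes of the machinery that processes SREBPs, 2 were higher (Spring1 and Erlin2) and 2 lower (Mbtps2 and Sec24a). These counts are near the background of 15.4% higher and 13.6% lower, and are not a result about the list. Spring1, needed for SREBP cleavage, went from 34.8, 34.1 and 30.4 CPM to 45.7, 42.7 and 46.9 CPM (adjusted p = 6.04e-04). Mbtps2, the site-2 protease that releases the SREBP fragment, went from 97.2, 97.4 and 106 CPM to 79.1, 79.8 and 80.4 CPM (adjusted p = 7.83e-04). Erlin2, a protein of the endoplasmic reticulum membrane, rose 1.17-fold, and Sec24a, a coat protein of vesicles that leave the endoplasmic reticulum, fell from 79.4 ± 4.52 to 64.5 ± 0.602 CPM (adjusted p = 0.00702 and 0.00215). Mbtps1, the site-1 protease, and Insig2 had log2 fold changes of -0.12 and 0.11 (adjusted p = 0.114 and 0.434).

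Genes tied to the oxysterol-sensing LXR receptors and to cholesterol export had 4 of 9 tested members higher (Mylip, Lpcat3, Abca1 and Nceh1) and 0 lower with edgeR (0 at an unadjusted p under 0.05, and with DESeq2 and limma-voom). Among all genes tested, 15.4% were higher and 13.6% lower. Mylip, a ubiquitin ligase induced by LXRs, went from 9.59, 8.37 and 10.4 CPM to 21.5, 19.2 and 23.6 CPM (2.26-fold, adjusted p = 8.90e-06). Lpcat3, an acyltransferase of phospholipids, rose 1.33-fold and Nceh1, a cholesteryl ester hydrolase, 1.24-fold (adjusted p = 1.47e-04 and 0.00360). Abca1, the exporter of cholesterol, was scarce, at 0.0949, 0.0489 and 0.0242 CPM and 1.06, 0.885 and 0.317 CPM (adjusted p = 0.00130), and its controls held only 1 to 4 counts. With controls under the filter's minimum count of 10, Abca1 was tested only because the shACSL4 libraries passed it. Abca1 could therefore only be called higher, and its call adds no support to the count of 4. The LXR-beta gene Nr1h2 was at 43.4 and 42.5 CPM (adjusted p = 0.772). Rxra, Rxrb, Apoe and Soat1 of the same list did not pass the test either (edgeR adjusted p = 0.791, 0.925, 0.157 and 0.735). Nr1h3 and Abcg1 had too few counts to be tested. Of 2 tested oxysterol enzymes, Cyp46a1, which makes 24-hydroxycholesterol, rose from 1.72 ± 0.532 to 3.66 ± 0.673 CPM (adjusted p = 0.00502), and Ch25h was not analysed here.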

How the data were processed

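Total RNA-seq libraries of MC38 cells, 3 shControl and 3 shACSL4, were compared. RNA was depleted of ribosomal RNA and primed with random hexamers, per the labels' protocols. CASAVA, HISAT2, DESeq2 and the GRCm39 build are named in the submitters' processing notes. The counting program, annotation release, strand setting and versions are not given in the sources used here. The deposited table holds raw counts per gene, FPKM made by the authors with an undefined gene length, and the authors' log2 fold changes and p-values, per the file headers.

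Counts were fitted in R 4.3.3 with edgeR 4.0.16 (robust quasi-likelihood test, two-sided, group as only term, TMM scaling, filterByExpr at a minimum count of 10 and total of 15). P-values were adjusted by Benjamini-Hochberg over 14289 genes, with a threshold of 0.05. SE is the log2 fold change over the square root of F, and 95% intervals use the test's degrees of freedom. CPM are TMM-scaled, and means are ± SD over 3 libraries. A count of 0 allows up to 3 counts, or 0.0637 to 0.0733 CPM, covering counting error only. All members were named by rule, as were up to 4 genes with the smallest adjusted p from each further list, and Ch25h, Insig2, Mbtps1, Mbtps2 and Acat3. Values of some genes of the further lists that the rule names are not reported here. The members and lists were chosen with earlier results of these data known. Alternatives were DESeq2 1.42.0, limma-voom (limma 3.58.1), other scalings and filters (no filter, or 1 CPM in 3 libraries and a total of 60), a fit on protein-coding genes, the replicate number as a block, and each library left out. The workflow was tested on simulated data. Promoter windows came from RefSeq on GRCm38.p6, another build than the table's, so coordinates were not mixed.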

Additional observations from a re-analysis of the deposited data

How the results depend on the processing

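The count of members called stayed between 14 and 18 over the alternatives run, with 0 lower in each. DESeq2, limma-voom, DESeq2's size factors, library size alone, the stricter filter and protein-coding genes alone each gave 15, and no filter gave 16, which added Insig1. Leaving out each library gave 14 to 17 members, and 2944 to 5477 genes over the table, of which 1252 to 2659 were lower. It also gave medians on the log2 scale of 0.18 to 0.26 for all members, 0.15 to 0.22 for the early steps, 0.22 to 0.26 for the late steps, 0.31 to 0.40 for lipogenesis and 0.11 to 0.25 for the regulators. The lowest count of lower genes came without shACSL4 3. The cause was not tested.

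Replicate numbers were checked for pairing. Deviations from the group means correlated at 0.17, 0.079 and 0.27 between libraries numbered 1, 2 and 3 (11924 genes at 1 CPM or more). shACSL4 2 and shACSL4 3 were closest to the control of the same number, while shACSL4 1 was closest to shControl 2 at 0.22. These values do not settle whether the numbers mark pairs. Pairing is not stated in the labels, so the main fit left the block out. With the replicate block 18 members and 4 regulators passed, against 15 and 2 without it, and 5163 genes against 4155. Acly joined at adjusted p = 0.0493.

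The sign of 5 members near 0 turned, none of them past the threshold. Hmgcs1 ran from -0.028 to 0.072, Fdps from -0.047 to 0.027, Tm7sf2 from -0.099 to 0.21, Me1 from -0.0080 to 0.086 and Srebf2 from -0.0017 to 0.039 when libraries were left out, and Fdps was at 0.0031 with the stricter filter. Tm7sf2 had as few as 131 counts in a library, and every other member had at least 677.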

Other observations

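Regulators that act with SREBPs or respond to nutrients moved both ways, with 4 of 17 tested genes higher (Lpin1, Txnip, Mtor and Mlxip) and 5 lower (Nfyb, Rptor, Prkaa2, Nfya and Sp1). Nfyb, a subunit of the CCAAT-binding factor NF-Y, went from 67.7, 68.0 and 64.2 CPM in shControl 1 to 3 to 50.3, 52.1 and 49.8 CPM in shACSL4 1 to 3 (edgeR adjusted p = 2.84e-04), with no overlap. Nfya fell from 64.2 ± 1.69 to 56.6 ± 1.52 CPM and Sp1 from 223 ± 3.84 to 199 ± 8.68 CPM (adjusted p = 0.0292 and 0.0374). Both of these calls held in only 1 of 6 fits with a library left out. The third subunit, Nfyc, was at 37.1 and 43.5 CPM (adjusted p = 0.0786).

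Lpin1, a phosphatidate phosphatase, rose 1.38-fold and Txnip, a glucose-responsive gene, 1.40-fold (adjusted p = 5.74e-05 and 8.82e-05). Rptor, a subunit of mTOR complex 1, fell from 119.9 ± 7.13 to 96.0 ± 1.47 CPM, whereas Mtor, its kinase, rose from 48.6 ± 1.89 to 60.5 ± 2.87 CPM (adjusted p = 0.00110 and 0.00238). Prkaa2, an AMP-activated kinase subunit, fell from 34.5 ± 1.14 to 29.3 ± 0.525 CPM (adjusted p = 0.0194), and its call held in 3 of 6 fits with a library left out. The list was chosen with earlier results of these data known, and its counts are described beside the 15.4% higher and 13.6% lower of all genes tested.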
